A study of Mus musculus with 12 samples.

Results

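The genes described here drive and mark the cell division cycle. They are 40 genes given by name for their function (cyclins, cell cycle kinases, replication factors, spindle and kinetochore proteins), and all 40 were found among the 17710 genes of the deposited count table. All 40 passed the filter on low counts in each of the 5 comparisons as reported. With a filter of at least 1 CPM in 3 libraries, and without ICR CDAHFD replicate 2 or 3, Tyms was not tested in ICR.

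Liver RNA of 12 male mice was sequenced, 1 library per mouse and 3 mice in each of 4 groups. C57BL/6J is an inbred strain and ICR an outbred stock, and all the mice carry the wild-type genotype label. From 8 weeks of age the mice of each strain ate for 10 weeks either a normal diet (ND) or the CDAHFD, a diet rich in fat with defined amino acids and no added choline that produces a fatty, inflamed and scarred liver. The comparisons ask what the diet changed within each strain, and whether the strains differed in that change or on either diet. The libraries are of whole liver tissue, with no sorting of cells.

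In a resting adult liver nearly all hepatocytes are out of the cell cycle. Mitogens induce the D-type cyclins, which with their kinase partners inactivate the retinoblastoma protein and free E2F factors to switch on the genes of DNA replication. Genes of the later G2 and M phases follow under FOXM1, B-MYB and the DREAM complex, which reads a short promoter element called the cell cycle genes homology region (CHR), often beside CCAAT boxes bound by NF-Y. Liver injury can bring many cell types into the cycle, among them hepatocytes, bile duct cells, macrophages, stellate cells and lymphocytes, so a bulk library does not say which cells carry the signal.

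Promoters are shown for 6 genes on which the results turn: 3 that mark or run mitosis, 2 subunits of the replicative helicase, and Tk1, which was the single member to fall. Each window holds 250 bases before and 50 after the RefSeq transcription start, 300 bases in all, in GRCm38.p6 and 5′ to 3′ on the strand of the gene. Capitals mark the CHR core (TTTGAA), the CCAAT box (CCAAT) and strict E2F sites (TTTGGCGC, TTTCCCGC, TTTCGCGC or TTTGCCGC), searched on both strands, so that ATTGG is a CCAAT box read from the other strand.
Mki67 lies at chr7:135716330-135716629, minus strand, Kif23 at chr9:61946750-61947049, minus strand, Cdk1 at chr10:69352863-69353162, minus strand, Mcm5 at chr8:75109259-75109558, plus strand, Mcm6 at chr1:128359656-128359955, minus strand and Tk1 at chr11:117825965-117826264, minus strand.
Mki67: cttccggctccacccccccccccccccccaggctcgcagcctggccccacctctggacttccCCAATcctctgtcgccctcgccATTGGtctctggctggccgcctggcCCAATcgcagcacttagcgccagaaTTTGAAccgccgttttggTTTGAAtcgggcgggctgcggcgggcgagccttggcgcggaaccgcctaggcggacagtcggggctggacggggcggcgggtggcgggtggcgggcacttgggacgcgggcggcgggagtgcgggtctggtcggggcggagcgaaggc
Kif23: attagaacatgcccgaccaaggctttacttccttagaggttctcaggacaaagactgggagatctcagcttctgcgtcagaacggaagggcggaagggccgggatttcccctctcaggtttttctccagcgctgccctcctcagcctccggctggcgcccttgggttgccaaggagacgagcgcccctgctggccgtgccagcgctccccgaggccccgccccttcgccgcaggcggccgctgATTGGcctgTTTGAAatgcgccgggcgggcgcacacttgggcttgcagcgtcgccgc
Cdk1: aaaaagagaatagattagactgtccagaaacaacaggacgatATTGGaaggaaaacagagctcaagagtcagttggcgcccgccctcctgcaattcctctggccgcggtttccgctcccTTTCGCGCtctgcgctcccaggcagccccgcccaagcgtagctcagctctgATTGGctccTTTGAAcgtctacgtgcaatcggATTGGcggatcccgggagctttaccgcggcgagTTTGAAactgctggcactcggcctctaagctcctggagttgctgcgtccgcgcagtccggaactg
Mcm5: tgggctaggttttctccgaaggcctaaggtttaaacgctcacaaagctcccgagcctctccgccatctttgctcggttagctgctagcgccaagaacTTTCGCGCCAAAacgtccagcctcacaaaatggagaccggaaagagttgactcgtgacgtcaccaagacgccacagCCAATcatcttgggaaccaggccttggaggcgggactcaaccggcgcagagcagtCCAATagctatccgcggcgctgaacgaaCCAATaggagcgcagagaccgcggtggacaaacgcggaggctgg
Mcm6: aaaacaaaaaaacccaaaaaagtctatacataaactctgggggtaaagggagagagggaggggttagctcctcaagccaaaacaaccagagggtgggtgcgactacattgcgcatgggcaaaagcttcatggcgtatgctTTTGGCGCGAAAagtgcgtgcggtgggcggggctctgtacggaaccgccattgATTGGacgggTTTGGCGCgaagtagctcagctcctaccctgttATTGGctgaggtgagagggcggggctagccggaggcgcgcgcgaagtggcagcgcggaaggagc
Tk1: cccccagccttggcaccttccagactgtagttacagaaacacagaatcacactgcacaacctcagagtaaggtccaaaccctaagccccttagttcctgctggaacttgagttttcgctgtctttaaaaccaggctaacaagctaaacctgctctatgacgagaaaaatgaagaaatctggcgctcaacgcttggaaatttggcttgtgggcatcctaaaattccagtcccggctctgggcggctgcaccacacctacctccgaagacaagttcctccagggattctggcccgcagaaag
The Mki67 window holds 2 CHR cores and 3 CCAAT boxes, and the Kif23 window holds 1 of each next to the start. The Cdk1 window holds 2 CHR cores, 3 CCAAT boxes and 1 E2F site. E2F sites stand in the Mcm5 (2 matches, which overlap each other) and Mcm6 (3 matches, 2 of which overlap) windows, with no CHR core in either. None of these letters occurs in the Tk1 window.

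A RefSeq promoter was at hand for 30 of the 40 members, 18 of them in the 23 mitotic genes and 6 in the 7 genes of helicase and clamp. Of the 18 mitotic windows, 13 (72.2%) held a CHR core, against 18.1% of all 27025 promoters of the same length. A CCAAT box stood in 16 of the 18 mitotic windows and in all 6 helicase and clamp windows, against 37.9% of all promoters. The strict E2F site was in 4 of the 6 helicase and clamp windows and 1 of the 18 mitotic windows, against 2.32% of all promoters. The mitotic windows without a CHR core were those of Ccnb1, Birc5, Bub1, Cenpe and Nusap1. These are matches of letters and no binding was measured.

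**Figure D1:**
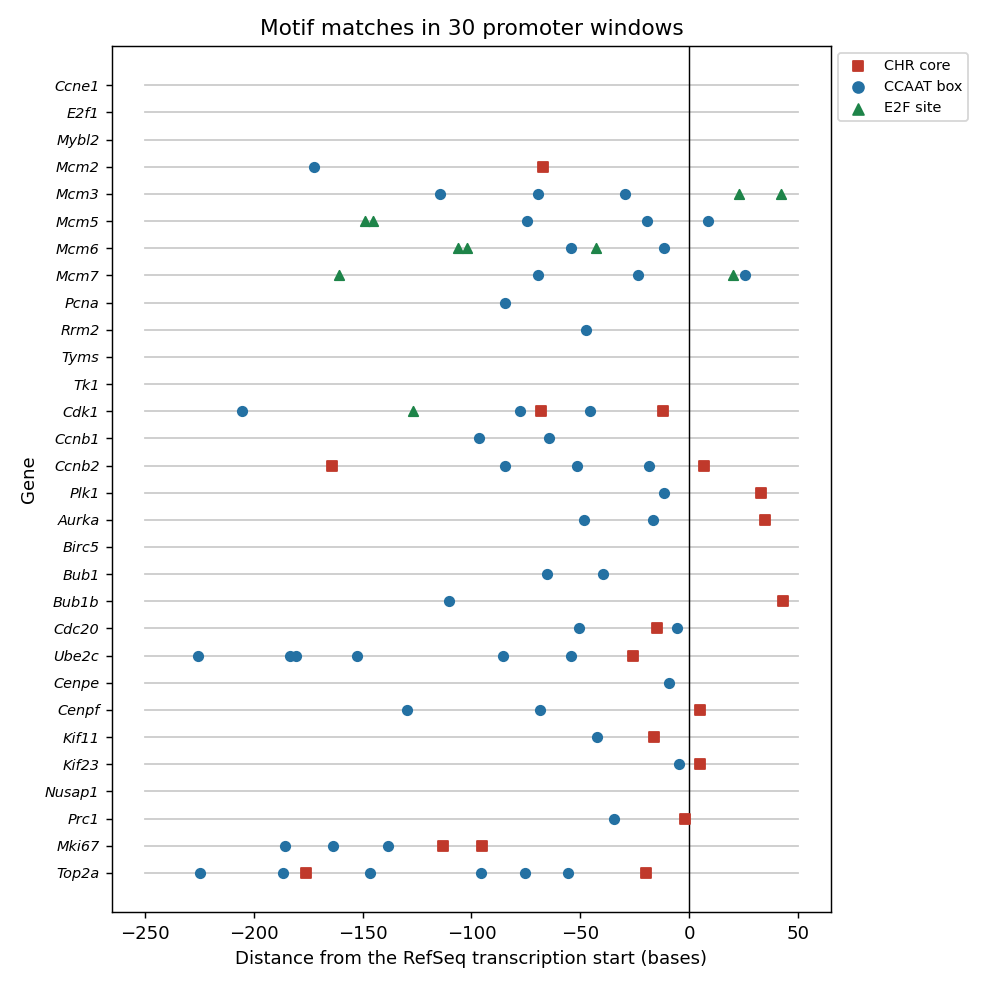
Positions of motif matches in the promoters of 30 cell cycle genes. The x axis is the distance from the RefSeq start in bases, each grey line is 1 promoter of 300 bases, red squares are CHR cores, blue circles CCAAT boxes and green triangles E2F sites. CHR cores lie in 13 of the 18 mitotic promoters and in 1 of the 6 helicase and clamp promoters, and E2F sites in 1 and 4 of them.

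Library totals ran from 22245245 to 32214782 counts, and every CDAHFD library was deeper than every ND library. Levels are given as CPM, counts set to a common library size, on library sizes scaled by the trimmed mean of M values (TMM), and differences as log2 fold changes with their standard errors (SE). The 40 genes together took between 0.0164% and 0.0984% of the counts of a library. Marker genes of several cell types moved with the diet. Of 6 hepatocyte markers 4 fell in each strain (summed, 101532 to 120087 CPM on ND and 43890 to 75713 CPM on CDAHFD in C57BL/6J, 81462 to 121140 and 66321 to 78461 CPM in ICR). All 8 markers of lipid-associated and monocyte-derived macrophages rose in both strains (summed, 135 to 312 CPM on ND and 2145 to 3688 CPM on CDAHFD in C57BL/6J, 129 to 180 and 1906 to 3636 CPM in ICR), as did all 5 of stellate cells and myofibroblasts. Of bile duct markers 4 of 5 rose in C57BL/6J and 5 of 5 in ICR, and of T cell markers 4 of 5 and 2 of 5. Natural killer cell markers rose in 4 of 4 and 2 of 4, and interferon-stimulated genes in 6 of 6 and 1 of 5. Of 5 resident Kupffer cell markers 0 rose, and 2 fell in C57BL/6J and 1 in ICR. Of 4 B and plasma cell markers 0 were called in either strain. Neutrophil markers rose in 0 of 3 and 1 of 5, and endothelial markers in 1 of 3 and 0 of 3. Of 5 erythroid markers 1 rose in each strain, and 3 fell in C57BL/6J and 1 in ICR. Of 6 acute phase genes 2 fell in each strain. Over all genes 26.0% rose and 21.2% fell in C57BL/6J, and 20.1% and 16.5% in ICR. No marker of these lists was at 0 in a whole group, other than Ly6g in ICR on ND. More dividing cells and more RNA per cell cannot be told apart in bulk tissue, and the part of these cell types in the results below was not tested.

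CDAHFD raised most of the cell cycle genes in C57BL/6J mice. Of the 40, 34 (85%) rose, 1 fell and 5 did not pass, where 26.0% of all 13402 genes tested rose and 21.2% fell. Their median log2 fold change was 1.76 and their range -0.89 to 3.19, beside a median of 0.00 over all genes. In 36 of the 40 every CDAHFD library stood above every ND library, against 30.6% of all genes, and in 1 below, against 27.7%. The members that did not pass were Ccne2, E2f1, Mybl2, Tyms and Aurka. In ICR mice 10 (25%) rose, 1 fell and 29 did not pass, with 20.1% of all 13319 genes tested rising and 16.5% falling, so the share that rose was near that of all genes. The median over the 40 was 0.71 in ICR and -0.01 over all genes, 38 of the 40 estimates were above 0, and the groups stood apart upward in 16, against 27.5% of all genes, and downward in 1, against 25.9%. At an unadjusted p under 0.05 and a fold of at least 2, 30 members rose and 0 fell in C57BL/6J, with 20.8% and 7.89% of all genes, and 10 rose and 0 fell in ICR, with 17.9% and 7.67%. Leaving out 1 library changed the ICR count to 6 without CDAHFD replicate 1, to 5 without CDAHFD replicate 2, to 5 without ND replicate 3 and to 15 without ND replicate 2. The shares of all genes that rose in those 4 fits were 15.5%, 14.7%, 13.4% and 21.4%. The ICR median of the 40 was 0.45 without ND replicate 1 and 1.01 without ND replicate 2. Ccnd1, Ccnd2, Mcm2, Mcm6 and Pcna rose in ICR whichever library was left out. In C57BL/6J 27 of the 34 rises passed in each such fit, and those of Ccne1, Mcm7, Cdc25c, Birc5, Cdc20, Ube2c and Kif20a did not in at least 1.

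Scaling bears on these counts because the CDAHFD libraries had TMM factors of 1.17 to 1.43 and the ND libraries of 0.760 to 0.849. With library size as the only scaling the median of all genes moved to 0.66 in C57BL/6J and 0.59 in ICR. The members' medians were then 2.41 and 1.34, no called member turned direction, and 32 rose in ICR where 52.5% of all genes did. Read against the median of all genes, the members' medians were close to those with TMM.

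**Figure D2:**
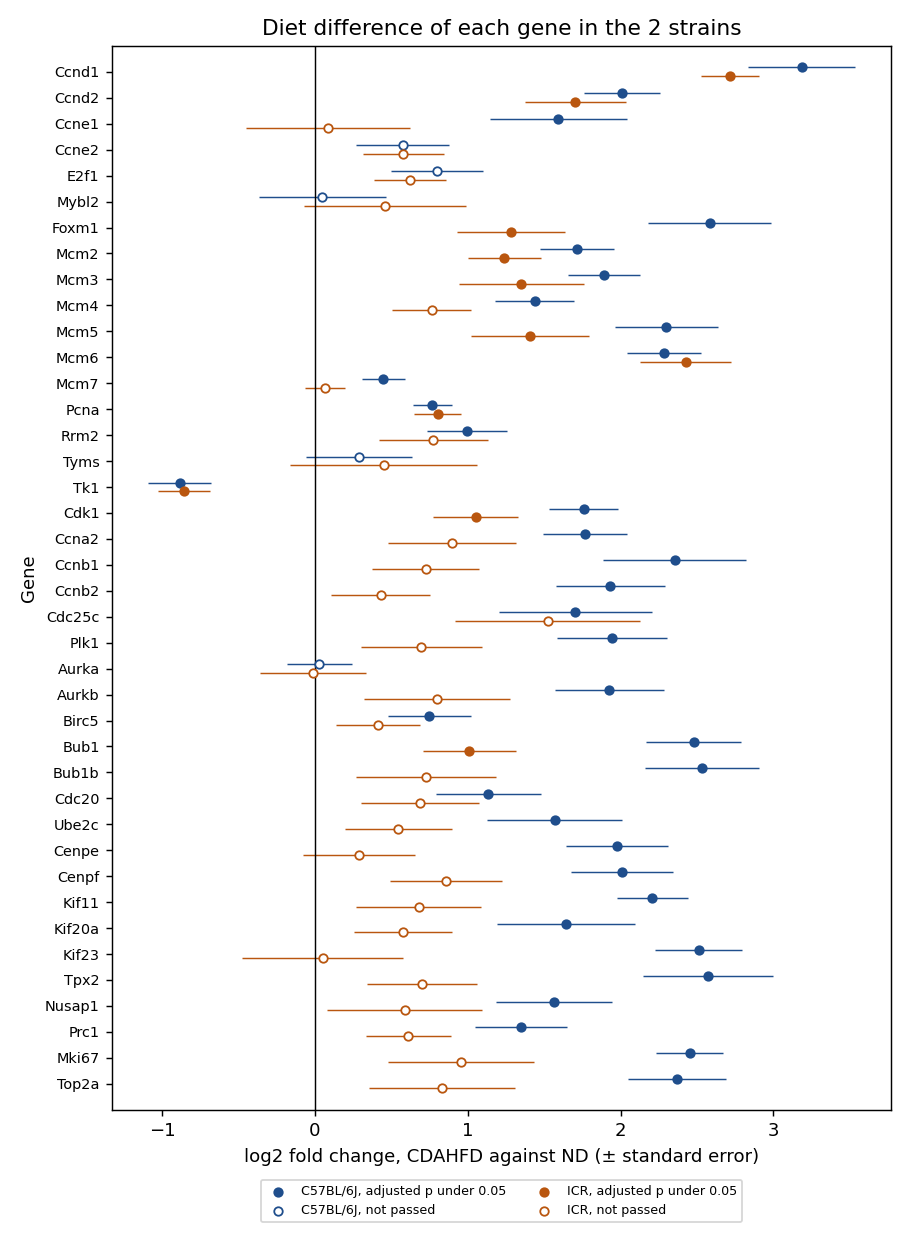
Difference between CDAHFD and ND for each of the 40 genes. The x axis is the log2 fold change, bars are standard errors, blue is C57BL/6J and orange ICR, and filled points have an adjusted p under 0.05. The blue points of the mitotic genes lie mostly near 2, with a median of 1.93 over 23 genes, and the orange ones lie lower, with a median of 0.70.

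The G1 cyclins hold the largest difference of the set. Ccnd1 (ENSMUSG00000070348, chr7:144929931-144939925, minus strand, GRCm38) encodes cyclin D1, the sensor of mitogens in hepatocytes. It stood at 11.3, 21.6 and 13.3 CPM in the C57BL/6J mice on ND and at 77.6, 167 and 175 CPM on CDAHFD. In ICR mice the values were 18.4, 18.2 and 26.2 CPM on ND, then 125, 129 and 158 CPM on CDAHFD. The diets did not overlap in either strain. The log2 fold changes were 3.19 (SE 0.35, adjusted p = 0.000119) and 2.72 (SE 0.19, adjusted p = 0.000329), a 9.10-fold and a 6.57-fold rise. About 23.4% of its exon bases overlap LTO1 on the opposite strand, and no source used here gives the strand setting of the counting. Opposite-strand overlap was also found for Ccne2, Mcm7, Ccna2, Cdc25c, Plk1, Ube2c, Kif20a and Prc1. It ran from 7.09% of exon bases in Plk1 to 29.3% in Kif20a.

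Ccnd2 encodes cyclin D2, which can stand in for cyclin D1 in many cell types. On ND it was at 6.76, 4.08 and 7.62 CPM in C57BL/6J and at 4.57, 10.3 and 4.30 CPM in ICR. On CDAHFD it was at 26.2, 19.4 and 28.7 CPM and at 22, 20.7 and 19 CPM, above all ND libraries of the same strain. The log2 fold changes were 2.01 (SE 0.25, adjusted p = 0.000237) and 1.70 (SE 0.33, adjusted p = 0.00774). Ccne1 encodes cyclin E1, which drives entry into S phase. Its C57BL/6J levels were 0.890, 2.24 and 0.794 CPM on ND against 2.56, 4.33 and 4.87 CPM on CDAHFD, a log2 fold change of 1.59 (SE 0.45, adjusted p = 0.0162). Without CDAHFD replicate 3 or without ND replicate 1 or 3 the adjusted p was 0.0625, 0.0604 and 0.0616. The ICR mice on ND were uneven for Ccne1, at 0.885, 5.18 and 2.81 CPM against 3.11, 3.28 and 2.87 CPM on CDAHFD, and the difference did not pass (0.09, SE 0.54, adjusted p = 0.914). Ccne2, which encodes cyclin E2, gave 0.57 (SE 0.30) and 0.58 (SE 0.26), neither of which passed.

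Among the transcription factors Foxm1, the activator of G2 and M phase genes, had the largest change in both strains. Its C57BL/6J levels were 1.05, 2.01 and 0.688 CPM on ND against 6.45, 5.84 and 10.05 CPM on CDAHFD. The ICR levels were 1.92, 5.01 and 4.30 CPM and 9.59, 10.2 and 7.21 CPM. In both strains all CDAHFD mice were above all ND mice, with log2 fold changes of 2.58 (SE 0.40, adjusted p = 0.000822) and 1.28 (SE 0.35, adjusted p = 0.0273). The ICR call was lost without CDAHFD replicate 1, CDAHFD replicate 2 or ND replicate 3, with adjusted p values of 0.0768, 0.0861 and 0.0652. E2f1, an activator of replication genes, was at 2.46, 3.91 and 4.13 CPM in C57BL/6J on ND and at 4.15, 6.95 and 7.15 CPM on CDAHFD. The groups did not overlap, yet the test just missed (0.80, SE 0.30, adjusted p = 0.0537). The DESeq2 Wald test, the likelihood ratio test, the fit with the replicate number as a block (adjusted p = 0.0176), 1 fit of all libraries and the fit without CDAHFD replicate 1 put E2f1 past the threshold in C57BL/6J. In ICR it went from 3.69, 3.43 and 3.92 CPM to 4.22, 6.40 and 6.38 CPM (0.62, SE 0.24, adjusted p = 0.0755). The DESeq2 Wald test (adjusted p = 0.0488) and the fit without ICR CDAHFD replicate 1 (adjusted p = 0.0445) called E2f1 there. Mybl2, which encodes B-MYB, had estimates of 0.05 and 0.46 with SE of 0.42 and 0.53 and did not pass.

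The genes of helicase and clamp rose in C57BL/6J, and most of them in ICR. Of the 6 subunits of the MCM helicase and the sliding clamp Pcna, 7 of 7 rose in C57BL/6J (median log2 fold change 1.71) and 5 of 7 in ICR (median 1.24). Over all genes 26.0% rose in C57BL/6J and 20.1% in ICR. Mcm6 (ENSMUSG00000026355, chr1:128331590-128359664, minus strand, GRCm38) stood at 5.34, 8.74 and 5.56 CPM in C57BL/6J on ND and at 24.8, 30.8 and 39.7 CPM on CDAHFD. The ICR mice had 3.74, 5.29 and 8.66 CPM and 31.8, 34.4 and 28.4 CPM. These were rises of 2.28 (SE 0.24, adjusted p = 0.000106) and 2.43 (SE 0.30, adjusted p = 0.00158), with a gap between the diets in both strains. Mcm2 was at 3.82, 5.35 and 4.61 CPM on ND and at 11, 15 and 19 CPM on CDAHFD in C57BL/6J. The ICR values of Mcm2 were 3.49, 6.25 and 4.69 CPM and 12.6, 10.9 and 10.2 CPM. Again the diets were apart, by 1.71 (SE 0.24, adjusted p = 0.000500) and 1.24 (SE 0.24, adjusted p = 0.00771).

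Mcm5 (ENSMUSG00000005410, chr8:75109569-75128439, plus strand, GRCm38) went from 1.68, 2.88 and 2.38 CPM to 7.47, 10.2 and 16.4 CPM in C57BL/6J, a log2 fold change of 2.30 (SE 0.34, adjusted p = 0.000599). In ICR the change was from 2.21, 6.93 and 4.03 CPM to 13.1, 12.2 and 9.06 CPM (1.41, SE 0.39, adjusted p = 0.0274). That call was lost without CDAHFD replicate 1, CDAHFD replicate 2 or ND replicate 3 (adjusted p = 0.0822, 0.0770 and 0.0936). Mcm3 and Mcm4 rose by 1.89 (SE 0.23) and 1.44 (SE 0.26) in C57BL/6J. In ICR Mcm3 passed with 1.35 (SE 0.41, adjusted p = 0.0383, and 0.0767 to 0.122 without each library in turn other than ND replicate 2) and Mcm4 did not (0.76, SE 0.26, adjusted p = 0.0538). Mcm4 passed in ICR by the DESeq2 Wald test (adjusted p = 0.0227), the likelihood ratio test (0.0268), 1 fit of all libraries (0.0475) and without ND replicate 2 (0.00624). Mcm7 had the smallest rise of the helicase, 0.45 (SE 0.14, adjusted p = 0.0274) in C57BL/6J, with 0.07 (SE 0.13) in ICR. A processed pseudogene with 97.7% identity covers 72.8% of the Mcm7 transcript, so reads could be shared with it.

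Pcna (ENSMUSG00000027342, chr2:132249162-132253314, minus strand, GRCm38) encodes the clamp that holds polymerases on DNA, and it was the most abundant member per length on ND. It stood at 37.0, 39.3 and 32.6 CPM in C57BL/6J on ND and at 57.3, 61.7 and 66.0 CPM on CDAHFD. ICR mice had 20.0, 25.0 and 18.9 CPM and 31.0, 38.9 and 41.0 CPM. The diets were apart in both strains, by 0.77 (SE 0.13, adjusted p = 0.00105) and 0.80 (SE 0.16, adjusted p = 0.00778), on a lower base in ICR. A pseudogene copy with 99.2% identity covers 51.4% of the Pcna transcript.

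Of the enzymes that make deoxynucleotides only Rrm2, the small subunit of ribonucleotide reductase, rose, and in C57BL/6J alone by the test. It was at 9.74, 4.54 and 6.14 CPM on ND and at 12.3, 13.5 and 14.9 CPM on CDAHFD there (0.99, SE 0.26, adjusted p = 0.0125). In ICR it was at 2.95, 9.23 and 6.34 CPM and at 10.4, 10.5 and 10.4 CPM, and 0.78 (SE 0.36) did not pass (adjusted p = 0.131). The strain by diet term of Rrm2 was -0.23 (SE 0.49), so no difference between the strains was shown. Tk1 (ENSMUSG00000025574, chr11:117815526-117826092, minus strand, GRCm38) encodes cytosolic thymidine kinase of the salvage pathway and moved the other way. Its levels were 31.5, 21.3 and 37.7 CPM in C57BL/6J on ND and 14.1, 17.9 and 16.8 CPM on CDAHFD. In ICR they were 19.1, 15.4 and 21.0 CPM and 11, 10.1 and 9.48 CPM. Every CDAHFD mouse was below every ND mouse of its strain, with log2 fold changes of -0.89 (SE 0.21, adjusted p = 0.00703) and -0.86 (SE 0.17, adjusted p = 0.00896). The fall passed without each library in turn in both strains, and with library size scaling it was -0.26 (adjusted p = 0.342) and -0.24 (adjusted p = 0.284). Tyms, thymidylate synthase, was low throughout, with 3 to 46 counts per library, and its estimates of 0.29 (SE 0.35) and 0.45 (SE 0.61) did not pass.

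**Figure D3:**
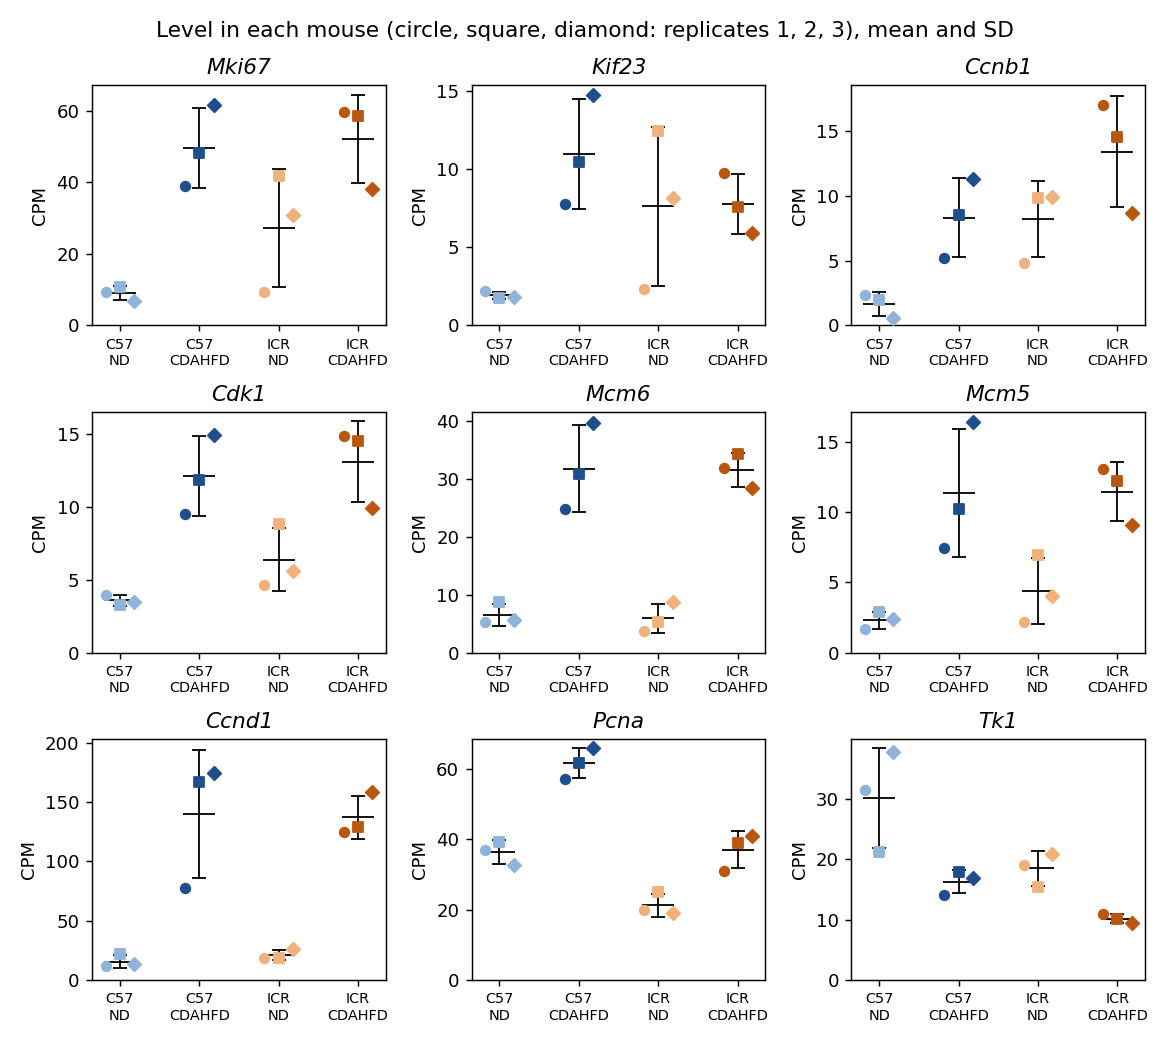
Levels of 9 cell cycle genes in each mouse, in CPM on a linear axis from 0. Circles, squares and diamonds are replicates 1, 2 and 3 of a group, and the black marks are the mean and SD of 3 mice. The CDAHFD groups of Mcm6 and Ccnd1 lie above both ND groups, Tk1 lies below them within each strain, and replicates 2 and 3 of ICR on ND stand high for Mki67 (41.8 and 30.8 CPM) and Kif23 (12.4 and 8.16 CPM).

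The 23 genes of G2 and mitosis rose together in C57BL/6J. The test called 22 of 23, all but Aurka, where 26.0% of all genes rose, with a median log2 fold change of 1.93. In ICR it called Cdk1 and Bub1, 2 of 23, where 20.1% of all genes rose. The ICR median was 0.70, and 22 of 23 estimates were above 0. Cdk1 (ENSMUSG00000019942, chr10:69335146-69352938, minus strand, GRCm38) encodes the kinase that starts mitosis. It was at 3.98, 3.28 and 3.49 CPM in C57BL/6J on ND and at 9.52, 11.9 and 14.9 CPM on CDAHFD. ICR mice had 4.67, 8.84 and 5.63 CPM and 14.9, 14.5 and 9.89 CPM. The diets were apart in both, by 1.76 (SE 0.23, adjusted p = 0.000288) and 1.05 (SE 0.28, adjusted p = 0.0242). In ICR the adjusted p of Cdk1 was between 0.0520 and 0.0883 when any 1 of CDAHFD replicates 1 and 2 and ND replicates 1 and 3 was left out.

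Ccnb1 encodes cyclin B1, the partner of that kinase. It was at 2.36, 1.96 and 0.582 CPM in C57BL/6J on ND and at 5.17, 8.5 and 11.3 CPM on CDAHFD (2.35, SE 0.47, adjusted p = 0.00296). ICR mice on ND had 4.82, 9.85 and 9.93 CPM, and those on CDAHFD 17, 14.6 and 8.65 CPM (0.73, SE 0.35, adjusted p = 0.145). Each ICR mouse on ND was above all C57BL/6J mice on ND, and the ICR diets overlapped. Several pseudogenes nearly identical to Ccnb1, 1 of them at 99.2% over 51.7% of its transcript, leave its level uncertain. The other mitotic cyclins Ccna2 and Ccnb2 gave 1.77 (SE 0.28) and 1.93 (SE 0.36) in C57BL/6J, and 0.90 (SE 0.42) and 0.43 (SE 0.32), not passed, in ICR. Cdc25c, the phosphatase that activates CDK1, gave 1.70 (SE 0.50, adjusted p = 0.0200) and 1.52 (SE 0.61, adjusted p = 0.0880) at 3 to 91 counts per library.

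Of the mitotic kinases Plk1 and Aurkb rose in C57BL/6J by 1.95 (SE 0.36) and 1.93 (SE 0.35), and Aurka had 0.03 (SE 0.21). In ICR Aurka had -0.01 (SE 0.35), and its ND mice there ranged from 3.93 to 10.4 CPM. Birc5 encodes survivin, a subunit of the chromosomal passenger complex with Aurora B. It was at 3.93, 4.08 and 5.35 CPM in C57BL/6J on ND and at 5.37, 7.08 and 9.94 CPM on CDAHFD. The diets were only just apart there, and 0.75 (SE 0.27) passed at an adjusted p of 0.0474, which became 0.0501 with RLE size factors and 0.218 without CDAHFD replicate 3. In ICR Birc5 was at 3.98, 6.64 and 7.06 CPM and at 9.38, 7.69 and 6.27 CPM, which overlap (0.41, SE 0.28, adjusted p = 0.274).

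Bub1, a kinase of the spindle checkpoint, stood at 0.786, 0.575 and 0.847 CPM in C57BL/6J on ND and at 3.72, 3.86 and 4.79 CPM on CDAHFD. ICR values were 1.92, 2.59 and 2.37 CPM and 5.06, 5.68 and 3.04 CPM. C57BL/6J on ND was lowest, ICR on ND next, and both CDAHFD groups were above them with no overlap. The log2 fold changes were 2.48 (SE 0.31, adjusted p = 0.000248) and 1.01 (SE 0.31, adjusted p = 0.0377). The ICR call of Bub1 was lost without CDAHFD replicate 1, CDAHFD replicate 2, ND replicate 1 or ND replicate 3 (adjusted p = 0.0824 to 0.136), and with the replicate number as a block (0.97, adjusted p = 0.0692). Its partner in the checkpoint Bub1b rose by 2.53 (SE 0.37) in C57BL/6J. Cdc20 and Ube2c, which serve the anaphase-promoting complex, rose there by 1.14 (SE 0.34) and 1.57 (SE 0.44). None of the last 3 passed in ICR, with estimates of 0.54 to 0.73.

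All 8 genes of the spindle, kinetochore and cytokinesis rose in C57BL/6J, by 1.35 to 2.57, whereas none passed in ICR, nor at an unadjusted p under 0.05, by the DESeq2 Wald test or by the likelihood ratio test, with estimates of 0.05 to 0.86. The shares of all genes that rose were 26.0% in C57BL/6J and 20.1% in ICR. Prc1 passed in ICR without ND replicate 2 (0.84, adjusted p = 0.0494), and with library size scaling Cenpf, Kif11, Kif20a, Prc1 and Tpx2 did. No gene of this class passed the quasi-likelihood test of the strain by diet term. Kif11 (ENSMUSG00000012443, chr19:37376403-37421859, plus strand, GRCm38) encodes the motor that pushes spindle poles apart. It was at 2.88, 2.07 and 2.06 CPM on ND and at 9.12, 11.1 and 12.2 CPM on CDAHFD in C57BL/6J, 2.21 on the log2 scale (SE 0.23, adjusted p = 9.89e-05). In ICR it was at 2.65, 9.01 and 7.28 CPM and at 11.3, 10.7 and 7.93 CPM (0.68, SE 0.41, adjusted p = 0.23). Kif23 (ENSMUSG00000032254, chr9:61915905-61946774, minus strand, GRCm38) encodes a motor of the midzone that is needed for cytokinesis. Its C57BL/6J values were 2.2, 1.78 and 1.8 CPM and 7.76, 10.5 and 14.8 CPM (2.51, SE 0.29, adjusted p = 0.000144). The ICR values of 2.31, 12.4 and 8.16 CPM on ND enclosed those on CDAHFD, 9.77, 7.61 and 5.94 CPM (0.05, SE 0.53, adjusted p = 0.947). Cenpe, a kinetochore motor, was at 3.51, 3.05 and 1.43 CPM and at 8.75, 9.16 and 13.4 CPM in C57BL/6J (1.98, SE 0.34, adjusted p = 0.00130). In ICR it was at 3.39, 8.67 and 8.66 CPM on ND, so that replicates 2 and 3 lay among the CDAHFD mice at 9.83, 8.64 and 6.52 CPM (0.29, SE 0.36, adjusted p = 0.570). Tpx2, Cenpf, Kif20a, Nusap1 and Prc1 rose in C57BL/6J by 2.57, 2.01, 1.64, 1.57 and 1.35.

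Mki67 (ENSMUSG00000031004, chr7:135689784-135716361, minus strand, GRCm38) encodes the chromosome surface protein read by the Ki-67 stain, and it had the smallest p of the set in C57BL/6J. Its levels there were 9.48, 10.8 and 6.94 CPM on ND against 39.1, 48.1 and 61.5 CPM on CDAHFD, a 5.48-fold rise (2.45, SE 0.22, adjusted p = 3.9e-05). ICR mice on CDAHFD reached the same range, 59.7, 58.6 and 38.1 CPM, but those on ND were at 9.29, 41.8 and 30.8 CPM, and 0.95 (SE 0.48) did not pass (adjusted p = 0.159). Top2a encodes the topoisomerase that untangles sister chromatids. It was at 7.49, 2.76 and 4.13 CPM and at 22.7, 21.6 and 30.1 CPM in C57BL/6J (2.37, SE 0.32, adjusted p = 0.000399). In ICR it was at 5.55, 27.3 and 16.0 CPM and at 31.9, 29.8 and 23.8 CPM (0.83, SE 0.48, adjusted p = 0.213). Without ND replicate 2 the ICR difference of Top2a was 1.42 with an adjusted p of 0.0344.

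**Figure D4:**
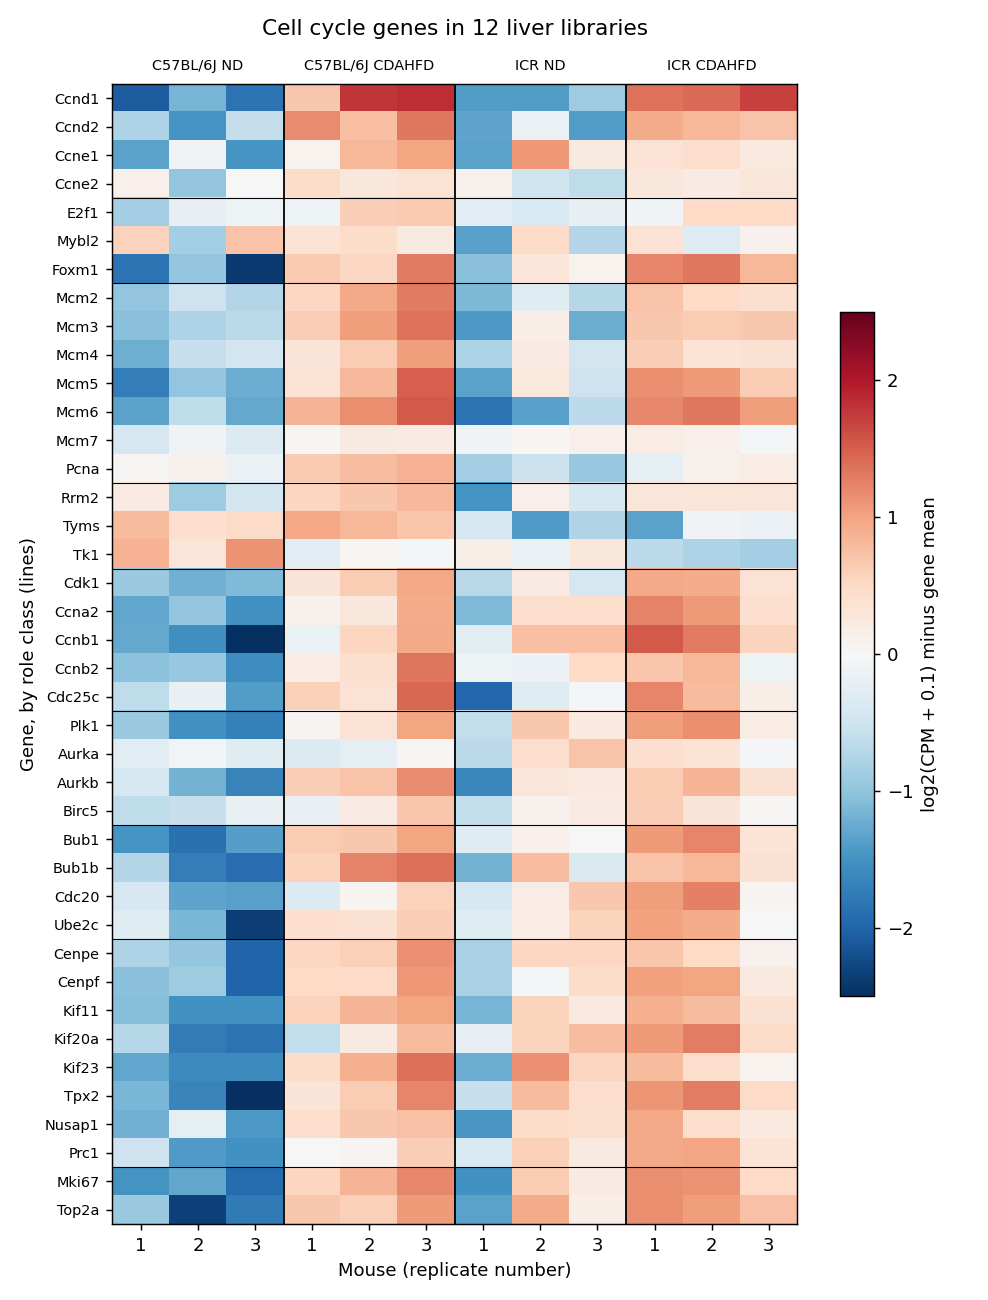
Levels of the 40 genes in the 12 libraries. Each row is a gene, ordered by role class with lines between classes, each column is a mouse, and color is log2(CPM + 0.1) minus the mean of the gene, red above and blue below. Replicate 1 of ICR on ND is blue for most genes like the C57BL/6J mice on ND, and it was the lowest of its group for 32 of 40, whereas replicates 2 and 3 are paler or red in the mitotic rows. The share of all genes lowest in that replicate was not computed.

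The ICR mice on ND were therefore uneven. The 23 mitotic genes summed to 83.2 CPM in replicate 1 but to 221 and 190 CPM in replicates 2 and 3. The C57BL/6J mice on ND were at 78.4, 63.0 and 49.8 CPM, and the CDAHFD mice at 188, 222 and 304 CPM in C57BL/6J, with 305, 297 and 193 CPM in ICR. Replicates 2 and 3 of ICR on ND thus lay within the range of the CDAHFD mice. Both stood above every C57BL/6J mouse on ND for 22 of the 23 mitotic genes. For the helicase and clamp genes replicate 1 was the lowest of the group in 6 of 7 and replicate 2 the highest in 5 of 7, and both replicates 2 and 3 stood above every C57BL/6J mouse on ND for 3 of 7. These were Mcm4, at 5.70, 11.4 and 7.23 CPM in ICR on ND, Mcm5 and Mcm7. The shares of all genes with these orders of libraries were not computed, so the counts describe the members only. The sums of the 7 genes, to which Pcna and Mcm7 gave the most on ND, were 57.3, 84.8 and 69.4 CPM in ICR on ND. They were 71.1, 86.6 and 73.4 CPM in C57BL/6J on ND and 134 to 205 CPM in the CDAHFD mice. Pcna was lower in ICR on both diets, which lowers the ICR sums. On ND it was at 20.0, 25.0 and 18.9 CPM in ICR and at 37.0, 39.3 and 32.6 CPM in C57BL/6J.

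Other genes were uneven in the same group. The 6 acute phase genes summed to 5963, 58874 and 26846 CPM in replicates 1, 2 and 3 of ICR on ND. But replicate 2 of C57BL/6J on ND had 37319 CPM, beside 3524 and 5728 CPM in its group, with the mitotic sum at 63.0 CPM. Neutrophil markers were at 3.05, 25.2 and 12.4 CPM in ICR on ND, again higher in replicates 2 and 3. S100a8 and S100a9 gave most of these sums, and the neutrophil marker Ly6g was at 0 CPM in every mouse of the group. Hepatocyte markers summed to 121140, 81462 and 118883 CPM and erythroid markers to 301, 65.4 and 291 CPM. Markers of lipid-associated and monocyte-derived macrophages summed to 129, 180 and 132 CPM, and these 3 sums set replicate 2 apart alone. Resident Kupffer cell markers summed to 175, 398 and 276 CPM, higher in replicates 2 and 3 than in replicate 1. The part of these genes in the mitotic levels was not tested. Within the CDAHFD groups C57BL/6J replicate 3 was the highest of its group for 35 of 40 members, and ICR replicate 3 the lowest of its group for 31 of 40. For these counts too the shares of all genes were not computed.

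**Figure D5:**
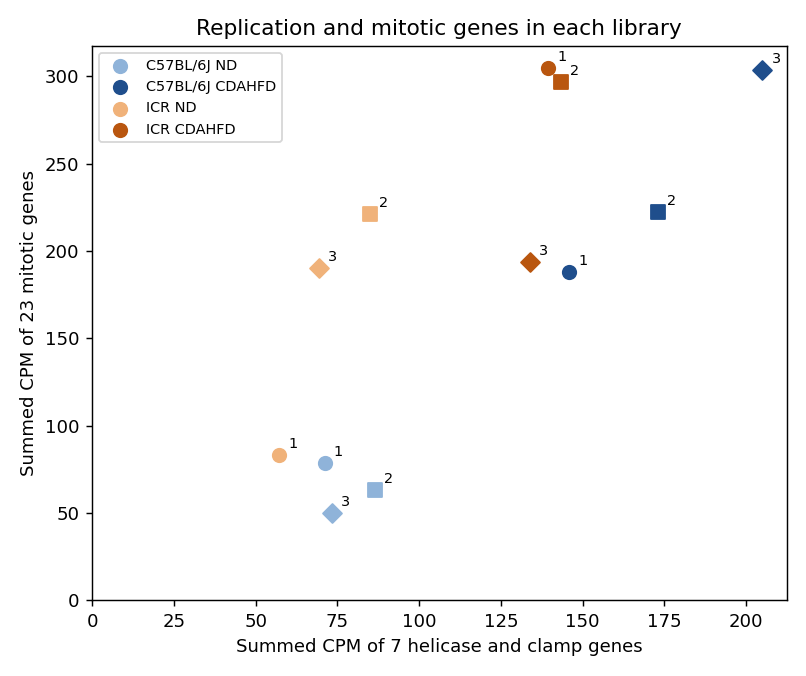
Summed level of 23 mitotic genes against that of 7 helicase and clamp genes in each of the 12 libraries, both in CPM on linear axes from 0. Colors are the groups and the number at each point is the replicate. Replicates 2 and 3 of ICR on ND (221 and 190 CPM on the y axis, 84.8 and 69.4 CPM on the x axis) have mitotic sums in the range of the CDAHFD libraries and helicase and clamp sums in the range of the ND libraries.

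Whether the diet changed these genes differently in the strains was tested by the strain by diet term, the ICR difference minus the C57BL/6J difference. No member passed in the quasi-likelihood test, in which 0.122% of all genes were called higher and 0.0575% lower. At an unadjusted p under 0.05, 13 of the 40 (32.5%) were lower and 0 higher, against 4.92% and 4.57% of all genes. The median term was -0.81, 34 of 40 were negative, and all 23 mitotic genes were, with a median of -1.16. The median over the 40 was -0.53 without ICR ND replicate 2, -0.54 without C57BL/6J CDAHFD replicate 3 and -1.10 without ICR ND replicate 1. Kif23 had the smallest p, -2.48 (SE 0.66, unadjusted p = 0.00271, adjusted p = 0.211). The DESeq2 Wald test called it (adjusted p = 0.0207), as did the likelihood ratio test (adjusted p = 0.0218), tests that called 241 and 232 genes in all against 25. Bub1 gave -1.47 (SE 0.41, adjusted p = 0.237) and Cenpe -1.70 (SE 0.54, adjusted p = 0.293). Without ICR ND replicate 1 the quasi-likelihood test called Kif11, Kif23 and Mki67, at -1.91, -2.91 and -1.92, and 57 genes higher and 79 lower in all. Of the 7 helicase and clamp genes 5 had negative terms, with a median of -0.48. Mcm5 had -0.91 (SE 0.55), Mcm4 -0.68 (SE 0.39) and Mcm3 -0.55 (SE 0.50), and the terms above 0 were those of Mcm6 (0.14, SE 0.40) and Pcna (0.03, SE 0.20). Tk1 had 0.03 (SE 0.28).

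The term shares its libraries with the comparisons of the strains on each diet, so those are given as its parts and not as further evidence. On ND 16 of the 40 (40%) were higher and 3 (7.5%) lower in ICR than in C57BL/6J, where 11.3% and 10.1% of all genes were, and the median was 0.93. The 16 were Foxm1 and 15 of the 23 mitotic genes. Bub1 was higher by 1.63 (SE 0.32, adjusted p = 0.00631), with each ICR mouse above each C57BL/6J mouse, Ccnb1 by 2.33 (SE 0.48) and Tpx2 by 2.10 (SE 0.47). These 3 passed in each fit without 1 library. Without replicate 1, 2 or 3 of C57BL/6J on ND the count was 11, 10 and 3, where 5.02%, 9.53% and 4.37% of all genes were higher. Without replicate 1, 2 or 3 of ICR on ND it was 24, 5 and 3, beside 16.1%, 6.21% and 4.98% of all genes. On CDAHFD 0 of 40 were higher and 3 lower, against 8.13% and 7.50% of all genes. By the DESeq2 Wald test and the likelihood ratio test too 0 were higher, 0 were higher at an unadjusted p under 0.05, and the median was -0.06.

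Pcna, Tk1 and Tyms were lower in ICR on both diets. Pcna was lower by 0.77 on ND (log2 -0.77, SE 0.15, adjusted p = 0.00586) and by 0.74 on CDAHFD (-0.74, SE 0.14, adjusted p = 0.00764), and the strains did not overlap on either diet. It was the only one of the 3 called in each fit that left out 1 library. Tk1 gave -0.71 (SE 0.20, adjusted p = 0.0270) and -0.68 (SE 0.20, adjusted p = 0.0392). Leaving out some single libraries took its adjusted p to as much as 0.121 on ND and 0.133 on CDAHFD. Tyms gave -1.60 (SE 0.50, adjusted p = 0.0417) and -1.44 (SE 0.45, adjusted p = 0.0480), at low counts and with calls lost in most such fits.

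Compared per length, by the mean of the deposited FPKM values, which are not TMM-scaled, the members spanned a wide range. In C57BL/6J on ND Pcna was the highest with 12 FPKM, followed by Tk1 (4.78), Ccnd1 (3.32) and Mcm7 (3.18), and Tyms the lowest with 0.135. On CDAHFD Ccnd1 led with 46.4 FPKM, then Pcna (31.9), Mcm6 (13.6) and Ccnb2 (6.87), with Tyms again lowest at 0.264. In ICR on CDAHFD the order at the top was Ccnd1 (42.8), Pcna (17.9) and Mcm6 (12.7). The order of neighbours was not tested.

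A wider list of 130 other cell cycle symbols, of which 127 were found, was described in the same way. In C57BL/6J 62 of the 121 tested rose and 15 fell, and in ICR 29 of 122 rose and 9 fell, beside the shares of all genes given above. Of 35 other mitotic genes 27 rose and 2 fell in C57BL/6J (median 1.79), and 8 rose in ICR (median 0.65). On ND 14 were higher and 2 lower in ICR than in C57BL/6J, beside 11.3% and 10.1% of all genes. On CDAHFD 0 were higher and 2 lower, beside 8.13% and 7.50%. Racgap1, the partner of KIF23 in cytokinesis, rose by 2.32 (SE 0.27) and 0.98 (SE 0.32, adjusted p = 0.0471). Hmgb2, a chromatin protein, rose by 1.38 (SE 0.14) in C57BL/6J and had 0.23 (SE 0.28) in ICR. At the replication fork C57BL/6J mice had 9 rises and 1 fall among 17 genes, and ICR mice 6 rises among 18. Uhrf1, which brings the maintenance methyltransferase to new DNA, went from 0.610 ± 0.138 to 9.44 ± 3.24 CPM (SD, n = 3) in C57BL/6J, 3.94 on the log2 scale (SE 0.35). In ICR it was at 3.79 ± 3.69 CPM on ND and 7.12 ± 0.539 CPM on CDAHFD and did not pass (adjusted p = 0.288). Dnmt1, that methyltransferase, rose by 1.27 (SE 0.15) and 0.75 (SE 0.14).

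Origin licensing and firing genes rose in 7 and fell in 2 of 12 in C57BL/6J, and rose in 4 and fell in 1 in ICR. Gins2, a subunit of the GINS complex that activates the helicase, rose by 2.26 (SE 0.47) and 2.00 (SE 0.30). Mcm10, a factor that helps to start replication, fell with CDAHFD in both strains. Mcm10 went from 149 ± 18.3 to 44.8 ± 11.9 CPM (SD, n = 3) in C57BL/6J and from 189 ± 29.2 to 55.3 ± 5.08 CPM in ICR, -1.73 (SE 0.20, adjusted p = 0.000176) and -1.77 (SE 0.16, adjusted p = 0.000599). The 15 RB and DREAM genes gave 2 rises and 4 falls in C57BL/6J, with 1 rise and 3 falls in ICR. Rbl1, which encodes the pocket protein p107, rose by 2.28 (SE 0.21) and 1.58 (SE 0.33). E2f8, an atypical repressor of E2F targets, fell by 1.06 (log2 -1.06, SE 0.39, adjusted p = 0.0497) and 1.93 (-1.93, SE 0.20, adjusted p = 0.000926). The anaphase-promoting complex had a median of 0.04 in both strains, with 2 of 17 up and 1 down in C57BL/6J and 1 and 1 in ICR. Anapc4 rose by 0.73 (SE 0.12) and 0.60 (SE 0.13), and Anapc13 had -0.89 (SE 0.18) and -0.77 (SE 0.18).

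Of 6 inhibitors of cyclin-dependent kinases tested, 5 rose in C57BL/6J, where 26.0% of all genes did. In ICR 2 of 6 rose, where 20.1% of all genes did. Cdkn1a, which encodes p21 and restrains the cycle after DNA damage, went from 6.47 ± 4.43 to 25.3 ± 5.03 CPM (SD, n = 3) in C57BL/6J and from 11 ± 3.73 to 59.4 ± 11.6 CPM in ICR, 1.98 (SE 0.42, adjusted p = 0.00419) and 2.45 (SE 0.27, adjusted p = 0.00119). Cdkn2c, which encodes the CDK4 and CDK6 inhibitor p18, rose by 1.44 (SE 0.20) and 1.76 (SE 0.28). Of 6 genes for kinases, CDC25 phosphatases and cyclin D3, 3 rose and 1 fell in C57BL/6J and 1 rose in ICR. Cdc25a rose by 1.51 (SE 0.19) and 1.63 (SE 0.23), and Cdc25b by 1.63 (SE 0.24) and, not passed, 0.77 (SE 0.33, adjusted p = 0.108).

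Over the 12 libraries the genes outside the list whose log2 CPM was most like the mean profile of the 40 were Melk, Arhgap11a, Racgap1, Cdc25b and Pbk, with Pearson's r of 0.991, 0.984, 0.976, 0.974 and 0.973. The points share the 4 groups and the differences in depth between diets, and the values are given as a description. Melk, a kinase gene, was at 0.471, 0.288 and 0.212 CPM in C57BL/6J on ND and at 0.295, 1.46 and 1.32 CPM in ICR on ND. Its levels on CDAHFD were 1.96, 2.32 and 3.64 CPM and 3.71, 2.48 and 1.69 CPM. Melk was picked for its likeness to the members over these same libraries, so its uneven ND group in ICR follows from that choice.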

How the data were processed

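The authors extracted liver RNA, trimmed reads with fastp 0.23.4, aligned them with HISAT2 2.2.1, counted them per gene with featureCounts 2.0.6 and tested 2 groups at a time with edgeR 4.0.16. The labels name an mRNA purification kit and dUTP second strands, whereas the study's methods name rRNA depletion and a stranded kit. The sample titles write the diet as CDHFD, whereas the methods name the CDAHFD, the name used here. The build is mm39 in the submitters' processing notes and mm10 in the methods, and the annotation and strand setting are not given in the sources used here. Promoters and gene positions come from GRCm38 annotations and not from the counting; near-identical copies were found by BLAST+ search of the transcripts of that annotation. The deposited table of protein-coding genes holds raw counts, the unit tested here, and FPKM values made by the authors, used only to compare levels between genes. Another 12 per-sample columns, of CPM, were not used, and 3 repeated lines of 17713 were dropped.

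The counts were fitted here with edgeR 4.0.16 and limma 3.58.1 under R 4.3.3 (filterByExpr with a count minimum of 10 and total minimum of 15, TMM, quasi-likelihood F test). Diet was tested within each strain on 6 libraries, and the strain by diet term and strain differences in 1 fit of the 4 groups (12 libraries). Benjamini-Hochberg adjustment ran over all genes tested, a call is an adjusted p under 0.05, and SE were taken from the test statistic. A gene's groups are apart when all libraries of one lie above all of the other. Alternatives were RLE size factors, library size scaling, other filters, the DESeq2 1.42.0 Wald test, the likelihood ratio test, 1 fit for all, the replicate number as a block, an unadjusted p under 0.05 with a fold of at least 2, and leaving out each library. The code was tested on simulated data. The members and lists were chosen with earlier results of these data known. Genes given in every library were those with the smallest p of each comparison, all falls, and 14 chosen by role; of each wider list the 2 with the smallest p are named. Nothing says that mice were littermates. The p values weigh each difference against the spread between mice of a group. The fit of 12 libraries used 1 estimate of that spread per gene over the 4 groups.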

Additional observations from a re-analysis of the deposited data

How the results depend on the processing

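No called member turned direction under any alternative, and gene by gene 3263 values kept their side of the threshold, 149 fell short of it and 65 newly passed. With library size scaling 0 members fell in either strain, the members' medians were 2.41 in C57BL/6J and 1.34 in ICR, and 32 rose in ICR, beside medians of all genes of 0.66 and 0.59. With an unadjusted p under 0.05 and a fold of at least 2, 0 fell in either strain, since Tk1 fell by less. The strain by diet term gave 1 lower member, Kif23, by DESeq2 and 1, the same gene, by the edgeR likelihood ratio test. With 1 library left out, 27 to 35 members rose in C57BL/6J and 5 to 15 in ICR, 0 to 3 were lower in the strain by diet term, 3 to 24 were higher and 1 to 3 lower in ICR on ND, with a median of 0.57 to 1.35, and 1 to 3 were lower in ICR on CDAHFD. With the replicate number as a block (replicate block) 35 rose in C57BL/6J and 9 in ICR, 14 were higher and 2 lower in ICR on ND, and 2 lower on CDAHFD. The numbers were not taken to pair the mice, as their deviations correlated at -0.03 to 0.16 in C57BL/6J and -0.02 to 0.17 in ICR. Depth limits Tyms and Cdc25c most, with a lowest count of 3 each.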

Other observations

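Growth factors and receptors that act on hepatocytes, a list of 15 symbols of which 13 were tested, moved in both directions with CDAHFD. In C57BL/6J 7 rose and 4 fell (median log2 fold change 0.86), where 26.0% of all genes rose and 21.2% fell. In ICR 6 rose and 4 fell (median 0.63), where 20.1% of all genes rose and 16.5% fell. Hgf, which encodes hepatocyte growth factor made by stellate and endothelial cells, went from 3.32 ± 0.596 to 12.5 ± 1.29 CPM (SD, n = 3) in C57BL/6J and from 6.60 ± 4.38 to 27.5 ± 0.902 CPM in ICR. The log2 fold changes were 1.91 (SE 0.21, adjusted p = 0.00012) and 2.08 (SE 0.41, adjusted p = 0.00817). Myc, an early gene of growth stimulation, rose by 2.41 (SE 0.29, adjusted p = 0.000194) and 1.34 (SE 0.24, adjusted p = 0.00621). On ND 3 of the 13 genes were higher in ICR than in C57BL/6J, and on CDAHFD 2 were, beside 11.3% and 8.13% of all genes.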
